A study of Mus musculus with 12 samples.

Results

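RNA from mouse testes was compared between 2 groups of 3 libraries each, labelled IMA10 and Sa. They were chosen by their labels, as 6 of the 12 libraries of the series, and the 14351 of 22221 rows of the deposited table with at least 1 FPKM in 3 or more of these 6 libraries were analysed. All 12 libraries came from testes of ICR mice, an outbred stock. At 3 weeks of age the mice of both groups were given a single dose of busulfan, a DNA-alkylating agent toxic to proliferating germ cells. The IMA10 mice then received gut microbiota from donor mice that had been given alginate oligosaccharide, short chains cut from a seaweed polysaccharide (the label spells it Aligina Oligosaccharide), at 10 mg/kg body weight. The Sa mice received saline in place of microbiota. Treatment with microbiota lasted 2 weeks, and the testes were taken 3 weeks later. A description among the labels mentions cultured testis, although no step of culture is given. It is not stated whether libraries within a group came from separate animals, whether animals or donors were pooled, or how the oligosaccharide was given, so every p-value below measures only the spread between these libraries, which may be technical.

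The comparison asks how a testis treated with busulfan differs when microbiota of donors given the oligosaccharide follows instead of saline. It changes 2 things at once, the giving of microbiota and what the donors had been given, and these cannot be told apart between IMA10 and Sa alone. The other 6 libraries serve here only as a scale. They are 3 of IMC, which had busulfan and then microbiota from donors given ddH2O, and 3 of Con, with no treatment. Columns of Con are named with a prefix of their own, and in any percent of the untreated level a possible batch and the lack of treatment cannot be told apart.

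Sperm form from stem spermatogonia, which renew themselves or turn into differentiating spermatogonia under the action of retinoic acid. These divide, replicate their DNA a last time and enter meiosis as spermatocytes. Haploid round spermatids then elongate, and their histones give way first to transition proteins and then to protamines. Sertoli cells nurse all these stages inside the tubule, peritubular myoid cells wrap the tubule, and Leydig cells outside it make testosterone. Busulfan given once removes dividing germ cells, and the later stages return wave by wave from the stem cells that survive. In bulk RNA, fewer cells of a type and less RNA per cell cannot be told apart. FPKM is also relative, so where RNA of a large cell class is scarce, values of all other classes are higher.

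IMA10 replicate 3 stood apart from the other 5 libraries. Across the 14351 genes its log2(FPKM + 1) values correlated with IMA10 replicates 1 and 2 at 0.56 and 0.67, with the Sa replicates at 0.879, 0.82 and 0.76, and with the untreated libraries at 0.926 to 0.934. IMA10 replicates 1 and 2 correlated with each other at 0.972, and the Sa libraries among themselves at 0.955 to 0.977. The first principal component of the 6 libraries held 83.3% of the variance. On it IMA10 replicates 1 and 2 lay at -95.5 and -53.9 and Sa replicates 3, 2 and 1 at -18.8, 6.1 and 31.4, while IMA10 replicate 3 lay at 130.8. The IMA10 libraries thus held both ends of this axis, with the Sa libraries between them. No label marks replicate 3 as faulty, and whether it holds the sample its label names was not tested. It correlated more closely with the untreated libraries than with its own group, so every value over all 3 IMA10 libraries rests on that label. List medians and differences of named genes are therefore given with it and without it. Depth is unknown because the table holds no counts. The summed FPKM ranged from 476294 to 519355 in the 6 libraries, and 12726 to 14474 rows reached 1 FPKM.

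**Figure D1:**
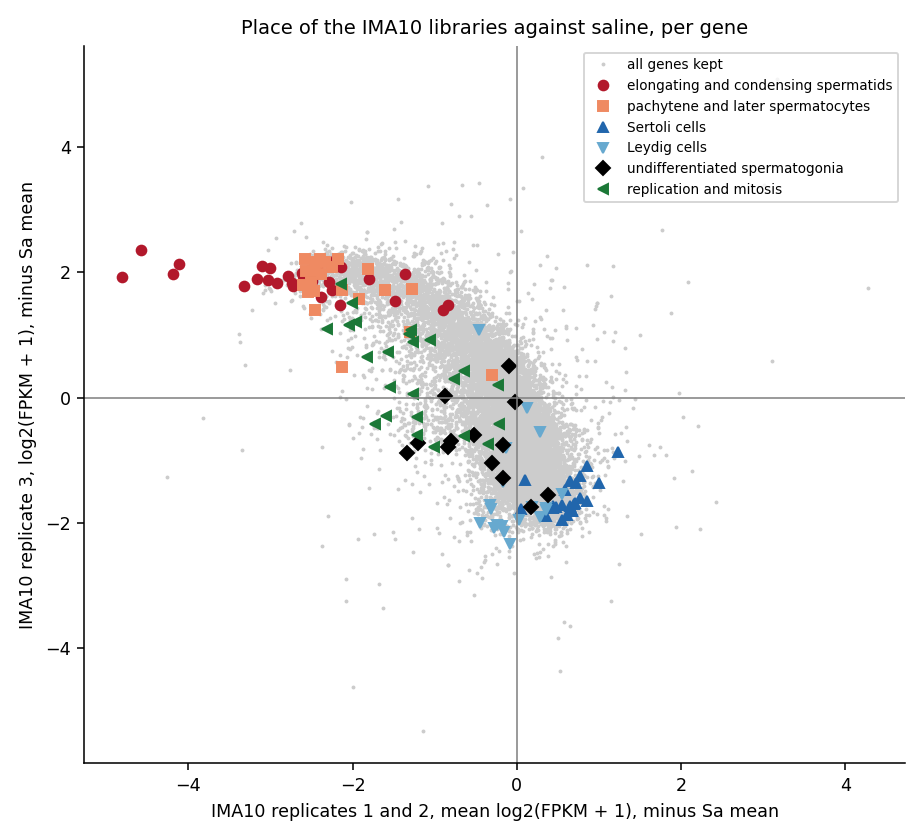
Each grey point is 1 of the 14351 genes. The horizontal axis gives the mean log2(FPKM + 1) of IMA10 replicates 1 and 2 minus the mean of the 3 Sa libraries, the vertical axis the same difference for IMA10 replicate 3, and coloured marks are members of 6 gene lists. Elongating spermatid and pachytene genes sit at upper left, Sertoli genes at lower right, and most of the undifferentiated spermatogonia genes below the horizontal line and left of the vertical one.

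With all 3 IMA10 libraries, no gene passed. Limma gave 0 of 14351 genes lower (0.0%) and 0 higher (0.0%) at an adjusted p under 0.05. At an unadjusted p under 0.05 it gave 222 lower (1.55%) and 9 higher (0.0627%). All differences below are IMA10 minus Sa on the log2(FPKM + 1) scale with limma's standard error, which understates the change of low genes, and with all 6 libraries all have an adjusted p of about 0.999. In 1064 genes (7.41%) all 3 IMA10 libraries lay below all 3 Sa libraries, and in 87 (0.606%) they lay above. These shares depend on the scaling. With median-of-ratios scaling they were 2.86% and 3.41%, and with quantile normalization 2.14% and 5.09%. The other 2 arrangements were more frequent. In 3757 genes (26.2%) IMA10 replicates 1 and 2 lay below all Sa libraries and replicate 3 above them, and in 2710 (18.9%) it was the reverse. Over all genes the median difference was -0.208 and 83.1% were negative. With median-of-ratios scaling the median moved by 0.2 and 51.9% were negative, and with quantile normalization it moved by 0.22 and 47.9% were. Medians of gene lists below are therefore also given relative to the all-gene median.

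Without IMA10 replicate 3, and with the spread taken from all 4 groups, limma called 3672 genes lower (25.6%) and 1146 higher (7.99%) at an adjusted p under 0.05. Values called "without replicate 3" below come from this fit, which sets 2 IMA10 libraries against 3 Sa libraries and has an all-gene median of -0.107. Every count of list members called in it is to be read beside these shares of 25.6% and 7.99%. Replicate 3 was left out because its values in these same data stood apart. All adjusted p-values and counts of genes called without it are therefore a description. They also rest on a spread to which the IMC and Con libraries contribute. The Con libraries correlated among themselves at 0.992 to 0.994, against 0.955 to 0.977 in Sa. These p-values thus do not measure the spread of IMA10 and Sa alone. Fitted on the 5 remaining libraries of the 2 groups alone, 2 genes passed as lower and 1 as higher. They are a new gene of the authors, Ranbp1, a regulator of nuclear transport that was listed at 0 in IMA10 replicates 1 and 2 and in all 3 untreated libraries, and the haemoglobin gene Hbb-bs. Ranbp1 stood at 18.2 FPKM in IMA10 replicate 3 and at 8.46, 10.2 and 9.59 FPKM in Sa. It was named because it passed, after its values were seen.

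**Figure D2:**
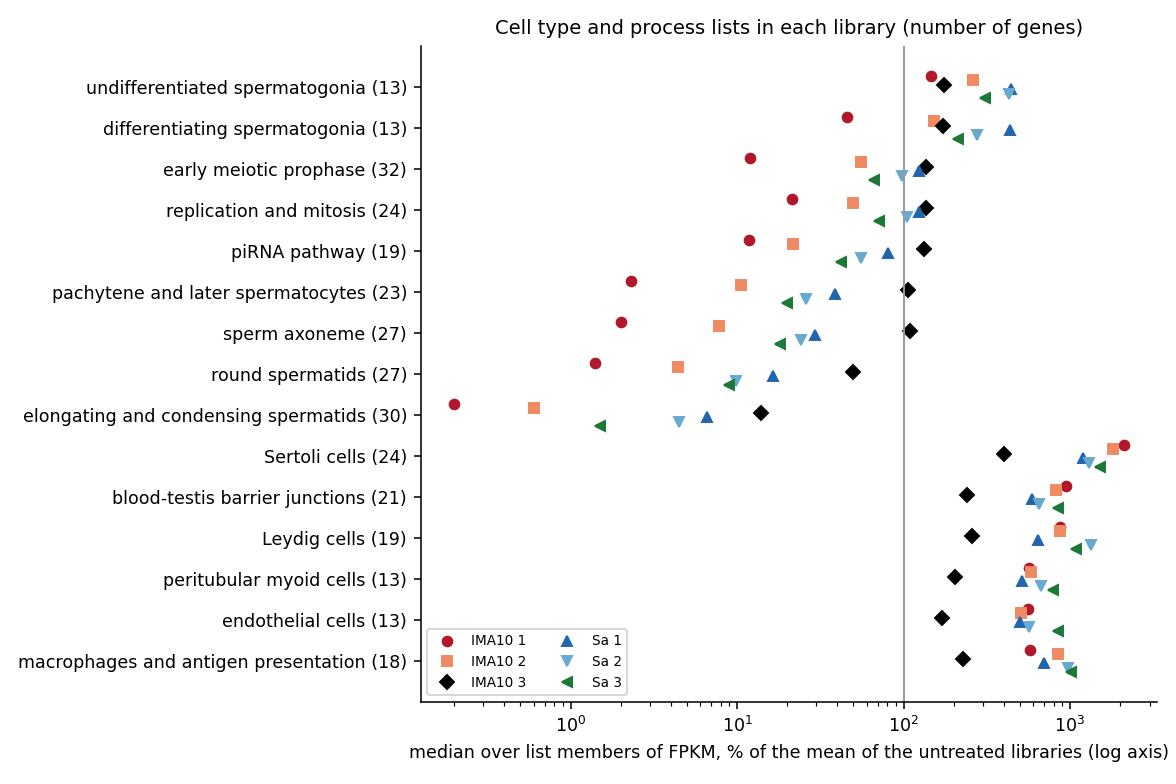
Each mark is the median over the members of a gene list (number of genes in brackets) of FPKM in 1 library, as a percent of the mean of the 3 untreated libraries, on a log axis. For elongating spermatids the IMA10 libraries stood at 0.2%, 0.6% and 13.9% and the Sa libraries at 6.6%, 4.5% and 1.5%, and for Sertoli cells the 3 IMA10 libraries stood at 2097%, 1802% and 401%.

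Transcripts of spermatids set the IMA10 libraries widely apart. The protamines Prm1 (Gene ID 19118) and Prm2 (19119) package the DNA of the sperm head. Prm1 stood at 5.47, 7.09 and 880.1 FPKM in IMA10 and 484, 367 and 27.9 FPKM in Sa (replicates 1, 2 and 3, here and below), against a mean of 10641 FPKM in untreated testes. IMA10 replicates 1 and 2 lay below every Sa library and replicate 3 above every one. The difference of Prm1 was -2.27 ± 2.17, and -4.58 ± 0.98 without replicate 3 (limma adjusted p = 0.0128). Prm2 followed with 5.72, 7.84 and 817 FPKM in IMA10 and 587, 418 and 40.1 FPKM in Sa. Its difference was -2.57 ± 2.08, and -4.81 ± 0.94 without replicate 3. In both genes Sa replicate 3 was also more than 10 times lower than Sa replicate 1, so the Sa group itself was wide. Tnp1 and Tnp2 encode the transition proteins that precede protamines. Tnp1 stood at 2.74, 8.28 and 447 FPKM in IMA10 and 238, 199 and 21.1 FPKM in Sa, and Tnp2 at 5.14, 9.31 and 571 FPKM in IMA10 and 345, 285 and 29.9 FPKM in Sa. The order of the 6 libraries was the same in both. Tnp1 differed by -2.03 ± 1.95, and by -4.11 ± 0.87 without replicate 3 (limma adjusted p = 0.0128).

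Of the 30 genes of elongating and condensing spermatids, all of which passed the filter on low values, 30 had IMA10 replicates 1 and 2 below and replicate 3 above all Sa libraries. Read against 26.2% of all genes with that arrangement, this describes the list. With quantile normalization it held in 28. The median difference was -1.07, or -0.86 relative to all genes, and none of the 30 passed at an unadjusted p under 0.05. Without replicate 3 the median was -2.55 and 30 of 30 were lower at an adjusted p under 0.05, beside 25.6% of all genes. Without IMA10 replicate 1 the median was -0.16. As a median percent of the untreated level the list stood at 0.2%, 0.6% and 13.9% in IMA10 and at 6.6%, 4.5% and 1.5% in Sa. Even the highest of the 6 libraries, IMA10 replicate 3, was thus far from the untreated level in this list.

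Round spermatids build the acrosome and switch on the genes for sperm shaping, many of them under the activator CREM, which binds the cAMP response element. Acrv1, an acrosome protein, stood at 2.02, 6.56 and 77.02 FPKM in IMA10 and 22.5, 12.9 and 11.1 FPKM in Sa, and differed by -0.39 ± 1.18 (-1.73 ± 0.45 without replicate 3). Tssk2, a kinase of spermatids, stood at 1.67, 3.68 and 80.9 FPKM in IMA10 and 35.5, 25.7 and 11.3 FPKM in Sa, with a difference of -1.18 ± 1.32, and -2.69 ± 0.45 without replicate 3 (limma adjusted p = 0.0128). The acrosomal gene Dkkl1, the list's most abundant, stood at 24.5, 93.6 and 1212 FPKM in IMA10 and 376, 248 and 208 FPKM in Sa, and Gsg1, expressed in germ cells, at 5.52, 14.6 and 269 FPKM in IMA10 and 130.4, 73 and 34.4 FPKM in Sa. In all 4 genes the 2 groups overlapped only because IMA10 replicate 3 lay above Sa. All 27 list members passed the filter, and 26 had that arrangement (25 with quantile normalization), beside 26.2% of all genes before scaling. The list median was -0.55, or -0.34 relative to all genes. Without replicate 3 it was -1.91, with 26 of 27 lower at an adjusted p under 0.05 (25.6% of all genes). Without IMA10 replicate 1 it turned to 0.33. As a percent of untreated, IMA10 stood at 1.4%, 4.4% and 49.8% and Sa at 16.5%, 9.9% and 9.0%.

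The upstream sequence of Tnp1 is shown because spermatid genes ranked the libraries alike. It is from RefSeq, build GRCm38.p6, minus strand, chr1:73015910-73016149, 240 bases that end before the first transcript start annotated there. Capitals mark the match to the cAMP response element written as TGANGTCA (N is any base), 94 bases before the RefSeq start.
Tnp1: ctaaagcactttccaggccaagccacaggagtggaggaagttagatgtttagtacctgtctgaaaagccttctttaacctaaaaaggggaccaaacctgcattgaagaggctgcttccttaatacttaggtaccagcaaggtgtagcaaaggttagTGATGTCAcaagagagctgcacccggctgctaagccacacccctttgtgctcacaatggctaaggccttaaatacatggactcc
Searched on both strands in the 250 bases before the RefSeq start, TGANGTCA was found in 10 of 26 elongating spermatid genes with an entry (38.5%) and in 10 of 24 round spermatid genes (41.7%). Among all 27025 genes with an entry the share was 8.5%, among the genes analysed here 8.3%, and among genes of replication and mitosis 9.1% (2 of 22). A match is a description of letters and shows no binding.

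Spermatocytes pass through the long pachytene stage, in which homologous chromosomes are paired and many later sperm genes are already active. Ldhc, the lactate dehydrogenase of germ cells, was the most abundant gene of its list and stood at 51.2, 196 and 2445 FPKM in IMA10 and 820.2, 593 and 450.3 FPKM in Sa. Only IMA10 replicate 3 was near the untreated mean of 2507 FPKM. The difference was -1.04 ± 1.35, and -2.57 ± 0.54 without replicate 3 (limma adjusted p = 0.0128). Cyct, the testis form of cytochrome c, stood at 3.93, 20.2 and 147 FPKM in IMA10 and 76.5, 52.9 and 41.8 FPKM in Sa, and differed by -1.18 ± 1.19 (-2.46 ± 0.53 without replicate 3). In the surface protein gene Tex101, at 24.1, 104 and 313 FPKM in IMA10 and 361, 197 and 157 FPKM in Sa, replicate 3 lay within the range of Sa. Tex101 differed by -1.26 ± 0.93, and by -2.13 ± 0.55 without replicate 3. Of the 24 genes of pachytene and later spermatocytes 23 passed the filter, and 21 of these had IMA10 replicates 1 and 2 below and replicate 3 above all Sa libraries (also 21 with quantile normalization, and 22 with median-of-ratios scaling). Mybl1, the transcription factor that opens pachytene gene expression, and Tex101 did not, and Mybl1 was named after this was seen. The list median was -0.90, or -0.70 relative to all genes. Without replicate 3 it was -2.39 with 22 of 23 lower, beside 25.6% of all genes. Without IMA10 replicate 1 it was 0.21, so the sign of this median rests on that library as well. The median percent of untreated was 2.3%, 10.6% and 106.8% in IMA10 and 38.7%, 25.9% and 19.9% in Sa.

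Axoneme genes, which build the motor of the sperm tail, and piRNA genes, which silence transposons in germ cells, largely followed the same order of libraries. Rsph1, a radial spoke protein, stood at 89.6, 187 and 1416 FPKM in IMA10 and 572, 372 and 303 FPKM in Sa. Qrich2, a protein of the sperm flagellum, stood at 3.91, 12.3 and 230.3 FPKM in IMA10 and 67.96, 46.7 and 42.02 FPKM in Sa, and Tekt1, a tektin of the axoneme, at 7.73, 24.3 and 271 FPKM in IMA10 and 99.4, 73.9 and 54.3 FPKM in Sa. Every one of the 27 axoneme genes that passed the filter, of 28, had replicates 1 and 2 below and replicate 3 above all Sa libraries, under each of the 3 scalings. Before scaling 26.2% of all genes had this arrangement. The axoneme median was -0.65 with all libraries and 0.33 without IMA10 replicate 1. It was -2.08 without replicate 3, when 27 of 27 were lower at an adjusted p under 0.05 (25.6% of all genes). In the piRNA list 14 of 19 genes (of 20) had that arrangement, beside 26.2% of all genes. The median of -0.68 was 0.02 without IMA10 replicate 1. It was -1.71 without replicate 3, with 17 of 19 lower (25.6% of all genes). Mael, a protein of the germ granule, stood at 25.6, 114 and 963 FPKM in IMA10 and 424, 282 and 222 FPKM in Sa, and the helicase gene Mov10l1 at 3.46, 16.1 and 39.8 FPKM in IMA10 and 55.9, 35.8 and 25.4 FPKM in Sa. In Mov10l1 and in 3 other members replicate 3 lay within the Sa range. The co-chaperone gene Fkbp6 stood at 88.98, 85.7 and 73.8 FPKM in IMA10 and 135, 104 and 106 FPKM in Sa. Here, alone in the list (5.26%, beside 7.41% of all genes), all 3 IMA10 libraries lay below Sa, with a difference of -0.46 ± 0.22 (-0.38 ± 0.16 without replicate 3).

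**Figure D3:**
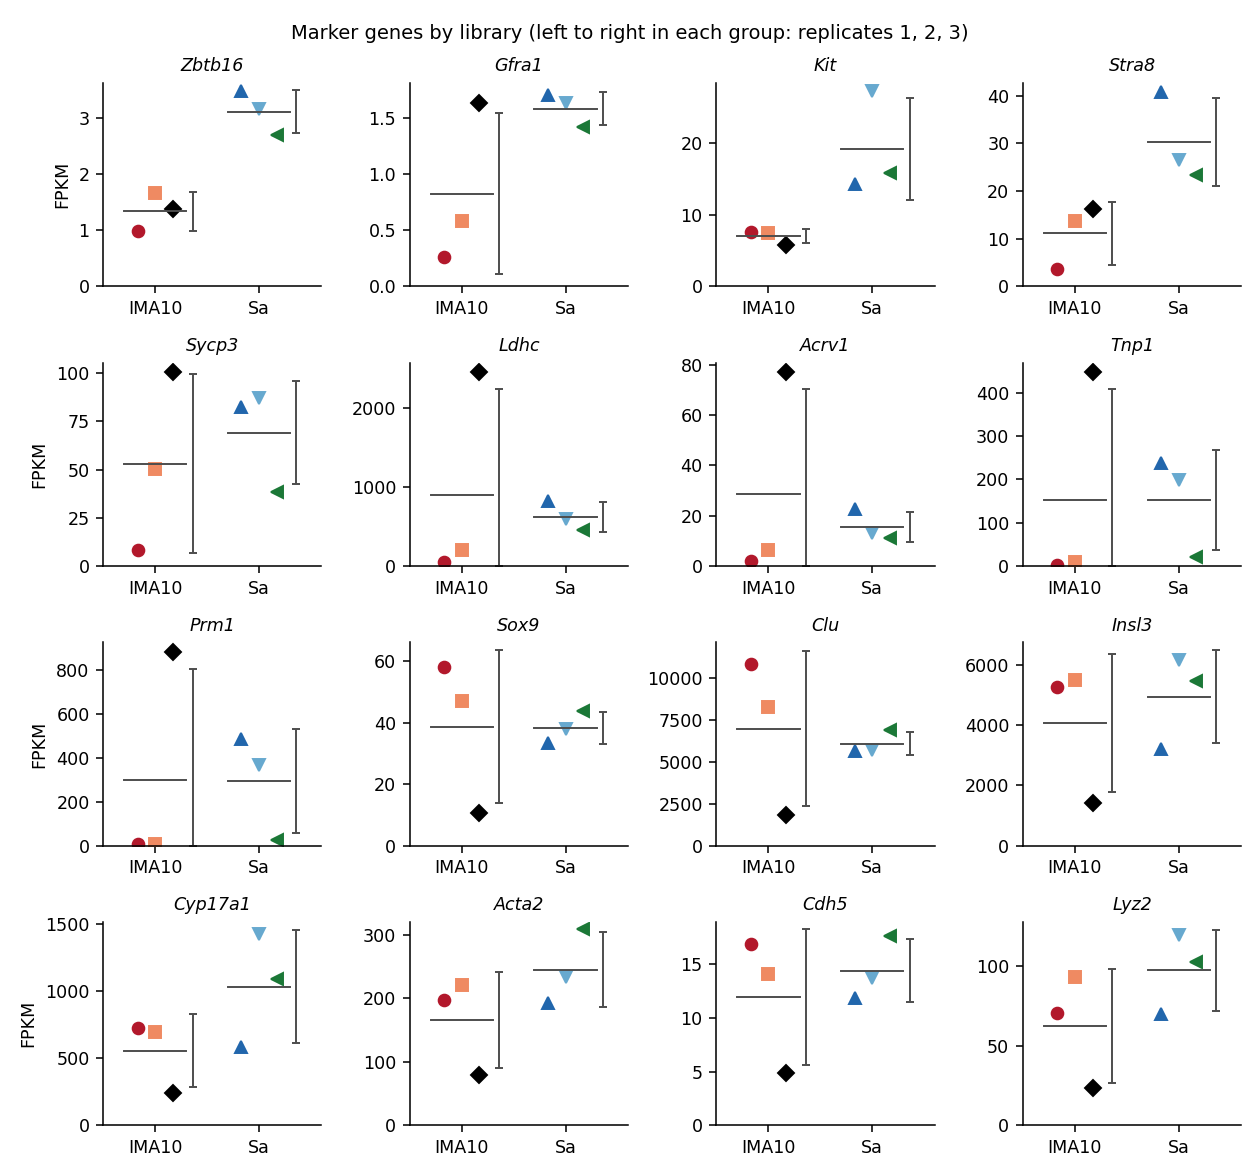
FPKM of 16 marker genes in the 3 IMA10 and 3 Sa libraries, each panel with its own linear axis from 0. Marks are replicates 1, 2 and 3 from left to right, horizontal lines are means and whiskers are SDs (n = 3), cut at 0 where they would fall below it. Zbtb16, Kit and Stra8 have no overlap between groups, while in Ldhc, Acrv1, Tnp1 and Prm1 the diamond of IMA10 replicate 3 is the highest mark and in Sox9, Clu, Insl3, Cyp17a1, Acta2, Cdh5 and Lyz2 the lowest.

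Genes of spermatogonia behaved otherwise, because IMA10 replicate 3 lay with the other IMA10 libraries in several of them. Zbtb16 (Gene ID 235320), a transcription factor that maintains stem spermatogonia, stood at 0.98, 1.67 and 1.38 FPKM in IMA10 and 3.48, 3.16 and 2.71 FPKM in Sa. All 3 IMA10 libraries lay below all 3 Sa libraries. The difference was -0.82 ± 0.23, and -0.84 ± 0.17 without replicate 3 (limma adjusted p = 0.0128). Ret, the signalling receptor for the niche factor GDNF, stood at 0.40, 0.91 and 0.77 FPKM in IMA10 and 2.13, 1.75 and 1.70 FPKM in Sa. It did not overlap either, with -0.77 ± 0.21 (-0.80 ± 0.15 without replicate 3), but it is under 1 FPKM in all 3 IMA10 libraries and passed the filter only through Sa. Gfra1, the co-receptor of Ret, stood at 0.26, 0.58 and 1.63 FPKM in IMA10 and 1.70, 1.63 and 1.42 FPKM in Sa. Its replicate 3 lay within the Sa range, and the difference was -0.57 ± 0.31, or -0.87 ± 0.15 without replicate 3 (limma adjusted p = 0.0128). Uchl1, the list's most abundant gene and also a nerve cell enzyme, stood at 89.7, 96.6 and 55.5 FPKM in IMA10 and 113, 95.8 and 142 FPKM in Sa, with overlap.

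Of the 19 genes of undifferentiated spermatogonia 13 passed the filter. Lhx1, Nanos2, Nanos3, Eomes, Neurog3 and Pax7 did not reach it. Of the 13, 12 had a negative difference (92.31%, beside 83.1% of all genes), and 6 (46.15%) had all IMA10 libraries below all Sa libraries. They were Zbtb16, Ret, Bcl6b, Sall4, Lin28a and Foxo1, set beside 7.41% of all genes. With median-of-ratios scaling the count was 5, beside 2.86% of all genes, and with quantile normalization 4, beside 2.14%. The unadjusted p was under 0.05 in 5 of the 13, beside 1.55% of all genes. Ret is in both counts although it had to be lower to pass through Sa alone, and without it they are 5 and 4 of 12. The list median was -0.55, or -0.34 relative to all genes, and it ranged from -0.69 to -0.31 when any 1 library was left out. Without replicate 3, 6 were lower at an adjusted p under 0.05 (46.2%, beside 25.6% of all genes). The median percent of untreated was 146%, 260% and 175% in IMA10 and 442%, 432% and 309% in Sa. The list median thus lay above the untreated level in all 6 libraries, and lower in the 3 IMA10 than in the 3 Sa libraries. Members differed in this. Id4, the member with a positive difference (0.10), stood at 17.7, 20.2 and 29.3 FPKM in IMA10 and 22.55, 19.6 and 19.0 FPKM in Sa. The groups overlapped in Id4, and also in Gfra1, Etv5, Uchl1, Utf1, Taf4b and Tspan8. Gfra1 stood at 10.2%, 22.7% and 63.7% of untreated in IMA10 and at 61.8% in the Sa mean. Lhx1, left out by the filter, had 0.24 FPKM or less in the 6 libraries and 1.03 to 1.87 in Con. Etv5 had 46.1, 45.2 and 11.4 FPKM in IMA10, 40.5, 42.9 and 38.4 in Sa and 4.42 to 5.2 in Con.

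The share of somatic RNA differs between these libraries, and set against Sertoli genes the order changes. The mean log2 level of the undifferentiated list minus that of the Sertoli list was -5.46, -4.95 and -3.27 in IMA10 and -3.98, -4.09 and -4.32 in Sa. By this measure IMA10 replicates 1 and 2 lay below all Sa libraries and replicate 3 above all of them. For the differentiating list the same measure was -5.37, -4.10 and -1.72 in IMA10 and -2.50, -2.79 and -3.41 in Sa, again with replicate 3 highest. The part of the somatic share in the lower FPKM values was not tested.

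Differentiating spermatogonia carry the receptor Kit and answer retinoic acid by turning on Stra8, which starts meiosis. Kit (Gene ID 16590) stood at 7.61, 7.48 and 5.84 FPKM in IMA10 and 14.3, 27.3 and 15.8 FPKM in Sa. The highest IMA10 library was below the lowest Sa library. The difference was -1.29 ± 0.32, and -1.18 ± 0.32 without replicate 3 (limma adjusted p = 0.0224). Stra8 (Gene ID 20899) stood at 3.68, 13.6 and 16.2 FPKM in IMA10 and 40.8, 26.5 and 23.4 FPKM in Sa, without overlap. It differed by -1.52 ± 0.56, and by -1.88 ± 0.50 without replicate 3 (limma adjusted p = 0.0214). Kit is also made by Leydig cells, whose hormone gene Insl3 is given with the somatic genes. Dmrtb1, a regulator at the entry to meiosis and the most abundant gene of the list, stood at 8.72, 34.3 and 479 FPKM in IMA10 and 128, 89.4 and 68.5 FPKM in Sa. It had the pattern of the spermatocyte genes, with replicate 3 above Sa.

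Of the 14 genes of the differentiating list 13 passed the filter, and all 13 had a negative difference, as had 83.1% of all genes. In 5 (38.46%, beside 7.41% of all genes) all IMA10 libraries lay below all Sa libraries, and these were Kit, Stra8, Dnmt3b, a DNA methyltransferase, and Sohlh1 and Sohlh2, transcription factors of differentiating spermatogonia. With median-of-ratios scaling 3 did (2.86% of all genes), and with quantile normalization 2 (2.14%). The median was -1.09, or -0.88 relative to all genes, and -1.51 without replicate 3. In that fit 9 of 13 were lower and 1 higher at an adjusted p under 0.05. These were 69.2% and 7.7%, beside 25.6% and 7.99% of all genes. Without IMA10 replicate 1 the median was -0.58. The median percent of untreated was 46.0%, 153% and 172% in IMA10 and 436%, 277% and 212% in Sa, with no overlap before any other scaling. The gap was narrow in the mean log2 level of the list, at 3.905 in IMA10 replicate 3 and 3.951 in Sa replicate 3. Elmo1 went another way, with IMA10 replicates 1 and 2 above all Sa libraries and replicate 3 below them. It stood at 72.2, 63.1 and 12.6 FPKM in IMA10, 47.1, 46 and 49.1 in Sa and 6.93 to 8.1 in Con. Dmrt1 stood at 62.2, 61.2 and 23.2 FPKM in IMA10, 64.45, 54.1 and 52.9 in Sa and 8.52 to 9.76 in Con.

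The upstream sequence of Stra8 is shown because this gene stands at the step from retinoic acid to meiosis and its groups did not overlap. It is from RefSeq, build GRCm38.p6, plus strand, chr6:34920698-34920947, the 250 bases before the RefSeq start. Capitals mark both matches to AGGTCA, the hexamer that retinoid receptors bind in pairs, 194 and 38 bases before that start.
Stra8: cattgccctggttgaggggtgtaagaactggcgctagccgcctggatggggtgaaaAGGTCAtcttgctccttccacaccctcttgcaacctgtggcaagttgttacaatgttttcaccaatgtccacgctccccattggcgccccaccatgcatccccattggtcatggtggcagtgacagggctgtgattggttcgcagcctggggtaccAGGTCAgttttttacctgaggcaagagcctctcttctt
On both strands AGGTCA was found in 2 of 11 genes of the differentiating list with an entry (18.2%), in 15.8% of all genes with an entry and in 13.8% of the genes analysed here. The share was higher in round spermatid genes (29.2%, 7 of 24) and elongating spermatid genes (23.1%, 6 of 26). It is contained in TGANGTCA when the variable base is G, so the searches are not independent.

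Early meiosis lay between these patterns. Rec114, which helps to make the DNA breaks of meiotic recombination, stood at 0.56, 1.41 and 3.61 FPKM in IMA10 and 6.84, 4.98 and 4.80 FPKM in Sa. Mei1, needed for the same breaks, stood at 0.45, 1.21 and 2.49 FPKM in IMA10 and 4.55, 3.63 and 2.91 FPKM in Sa. In both genes all IMA10 libraries lay below Sa, replicate 1 lowest, but with either other scaling the groups overlapped. Rec114 differed by -1.32 ± 0.44 and Mei1 by -1.06 ± 0.37, and without replicate 3 they differed by -1.74 ± 0.21 and -1.38 ± 0.33 (limma adjusted p = 0.0128 and 0.015). Sycp3, a lateral element of the synaptonemal complex, stood at 8.11, 50.5 and 101 FPKM in IMA10 and 82.4, 86.96 and 38.2 FPKM in Sa, with -0.86 ± 0.92 (-1.61 ± 0.63 without replicate 3). Syce1, a central element of the same complex, stood at 5.52, 24.1 and 240.1 FPKM in IMA10 and 89.2, 66.6 and 50.4 FPKM in Sa. In both of these, replicate 3 was the highest of the 6 libraries.

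Of the 33 genes of early meiotic prophase 32 passed the filter and all 32 had a negative difference, as had 83.1% of all genes. IMA10 replicate 1 lay below all Sa libraries in 32 and replicate 2 in 25, while replicate 3 lay above all of them in 17 and below them in 6. Among all 14351 genes the same counts were 7159, 5905, 4950 and 8070. The 5 without overlap (15.62%, beside 7.41% of all genes) were Rad21l, Mei1, Rec114, Prdm9 and Dmc1. With either other scaling 1 of 32 was left (3.12%), about the share of all genes, which was 2.86% with median-of-ratios scaling and 2.14% with quantile normalization. The median of -0.86 (-0.65 relative to all genes) was -0.16 without IMA10 replicate 1. It was -1.53 without replicate 3, when 24 of 32 were lower at an adjusted p under 0.05 (75.0%, beside 25.6% of all genes). The median percent of untreated was 11.9%, 55.8% and 136.6% in IMA10 and 123.1%, 97.9% and 66.6% in Sa. By this percent, before any other scaling, replicate 3 lay below Sa in both spermatogonia lists and above Sa in early meiosis. Set against Sertoli genes, it lay above all Sa libraries in the spermatogonia lists too, so this order depends on the measure.

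DNA replication genes showed both arrangements. Mcm2, a subunit of the replicative helicase, stood at 7.76, 10 and 10.5 FPKM in IMA10 and 22.4, 18.9 and 15.7 FPKM in Sa, and Cdt1, which loads that helicase onto origins, at 1.24, 2.98 and 3.60 FPKM in IMA10 and 8.59, 5.36 and 4.43 FPKM in Sa. Neither gene overlapped between groups, although Cdt1 did with either other scaling. Mcm2 differed by -0.94 ± 0.25 and Cdt1 by -1.004 ± 0.39, and without replicate 3 by -1.01 ± 0.23 and -1.21 ± 0.30. Cdc20, an activator of the anaphase-promoting complex and the most abundant gene of the list, stood at 6.57, 25.04 and 147 FPKM in IMA10 and 97.8, 66.1 and 49.5 FPKM in Sa, with replicate 3 on top, and differed by -1.17 ± 1.06 (-2.31 ± 0.51 without replicate 3). All 24 genes of replication and mitosis passed the filter and all 24 had a negative difference, as had 83.1% of all genes. The 7 without overlap (29.17%, beside 7.41% of all genes) were Mcm2, Mcm3, Mcm4, Mcm5, Mcm6, Cdt1 and Tyms, so they include all 5 of these helicase subunits, and of the Mcm genes listed Mcm7 was the one that overlapped. With median-of-ratios scaling 2 of the 24 did not overlap (8.33%, beside 2.86% of all genes) and with quantile normalization 3 (12.5%, beside 2.14%). The median was -0.82, or -0.61 relative to all genes, and -1.28 without replicate 3. In that fit 20 of 24 were lower at an adjusted p under 0.05 (83.3%, beside 25.6% of all genes). Without IMA10 replicate 1 the median was -0.12.

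**Figure D4:**
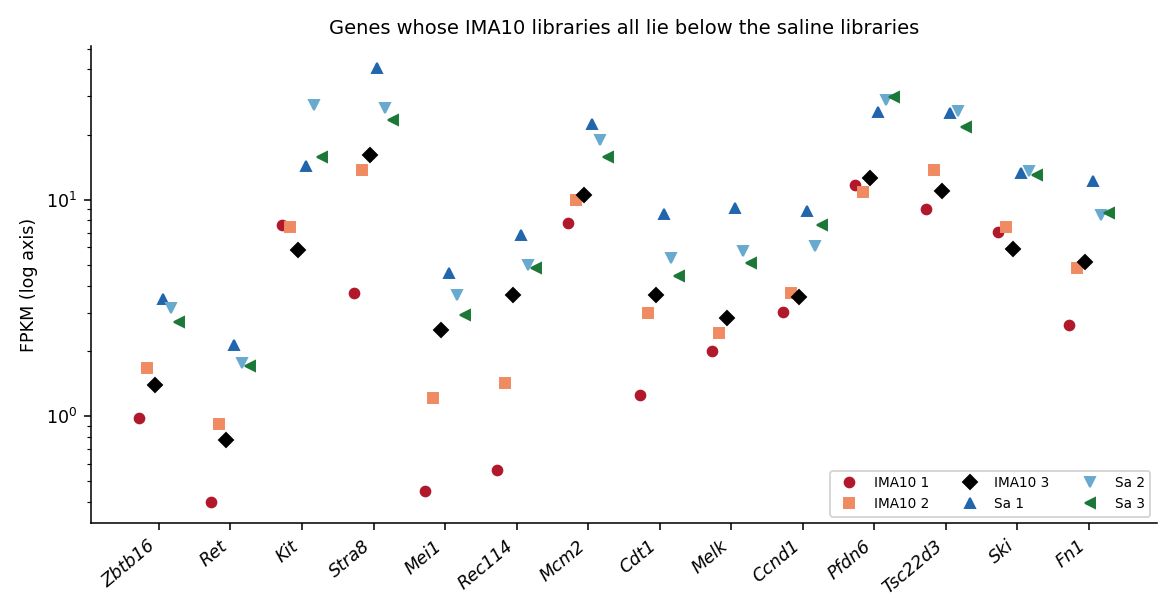
FPKM on a log axis of 14 genes in which all 3 IMA10 libraries lay below all 3 Sa libraries, chosen after their values were seen, with 1 mark per library. Kit stands at 5.84 to 7.61 FPKM in IMA10 and at 14.3 to 27.3 in Sa, and IMA10 replicate 1 is the lowest of the 6 in Zbtb16, Stra8, Mei1 and Rec114.

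Somatic lists gave the mirror image in the library that stood apart. Sox9, the transcription factor of Sertoli cells, stood at 58.1, 47.1 and 10.8 FPKM in IMA10 and 33.3, 38.02 and 43.7 FPKM in Sa. Clu, the secreted clusterin, was the most abundant gene of the list and stood at 10873, 8288 and 1834 FPKM in IMA10 and 5672, 5713 and 6919 FPKM in Sa. In both, IMA10 replicates 1 and 2 lay above all Sa libraries and replicate 3 below them. Sox9 differed by -0.28 ± 0.63 and Clu by -0.15 ± 0.69, and without replicate 3 these became 0.45 ± 0.15 and 0.64 ± 0.16 (limma adjusted p = 0.041 and 0.0164). Rhox8, a homeobox gene of Sertoli cells, stood at 80.7, 89.2 and 19.1 FPKM in IMA10 and 39.8, 44.1 and 25.5 FPKM in Sa, and differed by 0.53 ± 0.63, or by 1.23 ± 0.22 without replicate 3 (limma adjusted p = 0.0128). Of the 26 Sertoli genes 24 passed the filter, and 21 of them had this arrangement, which 18.9% of all genes had, under each of the 3 scalings. Trf, which encodes transferrin, and Shbg were among those without it. The median was -0.15 (0.06 relative to all genes), turned to 0.08 with median-of-ratios scaling and was -0.26 with quantile normalization. It was -0.585 without IMA10 replicate 1, -0.46 without replicate 2 and 0.66 without replicate 3. Without replicate 3, 19 of 24 were higher and 0 lower at an adjusted p under 0.05. The shares of all genes in that fit were 7.99% higher and 25.6% lower. Summed over the list, FPKM was 25086, 20416 and 4369 in IMA10 and 12950.1, 13126 and 15500.5 in Sa.

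Junction genes of the barrier between Sertoli cells followed. Cldn11, the claudin of that barrier, stood at 878, 719 and 143 FPKM in IMA10 and 458, 478 and 584 FPKM in Sa. Of the 21 of 22 genes that passed the filter, 12 had replicates 1 and 2 above and replicate 3 below all Sa libraries, beside 18.9% of all genes. The median was -0.25, or -0.04 relative to all genes, and 0.39 without replicate 3. In that fit 8 of 21 were higher and 2 lower at an adjusted p under 0.05. These were 38.1% and 9.5%, beside 7.99% and 25.6% of all genes. Cxadr, a virus receptor and adhesion protein, went the other way, at 0.33, 0.83 and 1.14 FPKM in IMA10 and 1.75, 1.34 and 1.75 FPKM in Sa. Its groups, alone in the list (4.76%, beside 7.41% of all genes), did not overlap, but did with either other scaling. It differed by -0.59 ± 0.25, and by -0.74 ± 0.15 without replicate 3 (limma adjusted p = 0.0128).

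In most genes of Leydig cells replicate 3 alone was low. Insl3, the peptide hormone of Leydig cells, stood at 5271, 5512 and 1419 FPKM in IMA10 and 3199, 6165 and 5463 FPKM in Sa, and differed by -0.46 ± 0.62, or by 0.18 ± 0.44 without replicate 3. Cyp17a1, an enzyme of androgen synthesis, stood at 725, 698 and 242 FPKM in IMA10 and 585, 1425 and 1089.7 FPKM in Sa, with -0.96 ± 0.56 (-0.44 ± 0.44 without replicate 3). IMA10 replicate 3 was the lowest of the 6 in both, and the other 2 IMA10 libraries lay within the Sa range. It lay below all Sa libraries in 18 of the 19 Leydig genes, all of which passed the filter, and in 8070 of all 14351 genes. The Leydig median was -0.56 (-0.36 relative to all genes) and -0.13 without replicate 3, when 1 was lower and 1 higher. Each was 5.3% of the list, under the 25.6% lower and 7.99% higher among all genes in that fit.

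The smooth muscle actin Acta2 of peritubular myoid cells stood at 198, 220.3 and 78.9 FPKM in IMA10 and 192, 233 and 309 FPKM in Sa, with a difference of -0.66 ± 0.45 (-0.20 ± 0.18 without replicate 3). The myosin gene Myh11 stood at 37.4, 38.2 and 15.6 FPKM in IMA10 and 36.6, 45.3 and 58.6 FPKM in Sa. Their list had a median of -0.47 over 13 of 13 genes, and -0.17 without replicate 3 with 2 lower (15.4%, below the 25.6% of all genes in that fit). Among endothelial genes Cdh5, the cadherin of blood vessels, stood at 16.9, 14.03 and 4.82 FPKM in IMA10 and 11.9, 13.7 and 17.6 FPKM in Sa, and differed by -0.39 ± 0.48 (0.11 ± 0.17 without replicate 3). Vwf, the clotting factor carrier, stood at 6.58, 5.90 and 2.67 FPKM in IMA10 and 8.60, 8.48 and 12.3 FPKM in Sa, and Flt1, a VEGF receptor, at 2.66, 3.09 and 1.44 FPKM in IMA10 and 3.20, 4.30 and 5.49 FPKM in Sa. These 2 alone in their list (15.38%, beside 7.41% of all genes) did not overlap between groups, except with quantile normalization. They differed by -0.89 ± 0.37 (-0.56 ± 0.18 without replicate 3) and -0.66 ± 0.31 (-0.44 ± 0.19 without replicate 3). Without replicate 3 the endothelial median over 13 of 14 genes went from -0.66 to -0.18, with 1 lower (7.7%, also below 25.6%).

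Macrophage and antigen presentation genes lay low in the same library. Lyz2, the lysozyme of macrophages, stood at 70.3, 93.3 and 23.5 FPKM in IMA10 and 69.6, 119 and 103 FPKM in Sa, with -0.81 ± 0.55 (-0.23 ± 0.27 without replicate 3). Csf1r, the receptor that macrophages need to survive, stood at 10.6, 12.7 and 4.03 FPKM in IMA10 and 13.04, 19.4 and 19.5 FPKM in Sa, and H2-Aa, a class II presenting molecule, at 11.8, 14.96 and 2.19 FPKM in IMA10 and 23.2, 19.6 and 18.5 FPKM in Sa. In Csf1r and H2-Aa all 3 IMA10 libraries lay below Sa (Csf1r not with either other scaling), with differences of -0.96 ± 0.44 and -1.30 ± 0.63, which were -0.52 ± 0.25 and -0.58 ± 0.23 without replicate 3. They were the 2 members of the list without overlap (11.11%, beside 7.41% of all genes). The median over 18 of 20 genes was -0.77, or -0.56 relative to all genes, and -0.29 without replicate 3, with 1 lower (5.6%, beside 25.6% of all genes). Of the 13 genes of lymphocytes and mast cells none passed the filter. Their summed FPKM was 2.7, 12.6 and 3.8 in IMA10 and 2.3, 3.2 and 2.1 in Sa. The 3 of 7 adipocyte genes that passed had a median of -0.60, and -0.49 without replicate 3, with Fabp4, a fatty acid binding protein, at 2.69, 2.80 and 0.53 FPKM in IMA10 and 5.49, 3.94 and 3.56 FPKM in Sa and -0.92 ± 0.42 (-0.49 ± 0.17 without replicate 3). Of 7 epididymis genes 2 passed, and the summed FPKM of the 5 in the table was 5.5 or less in all 6 libraries.

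**Figure D5:**
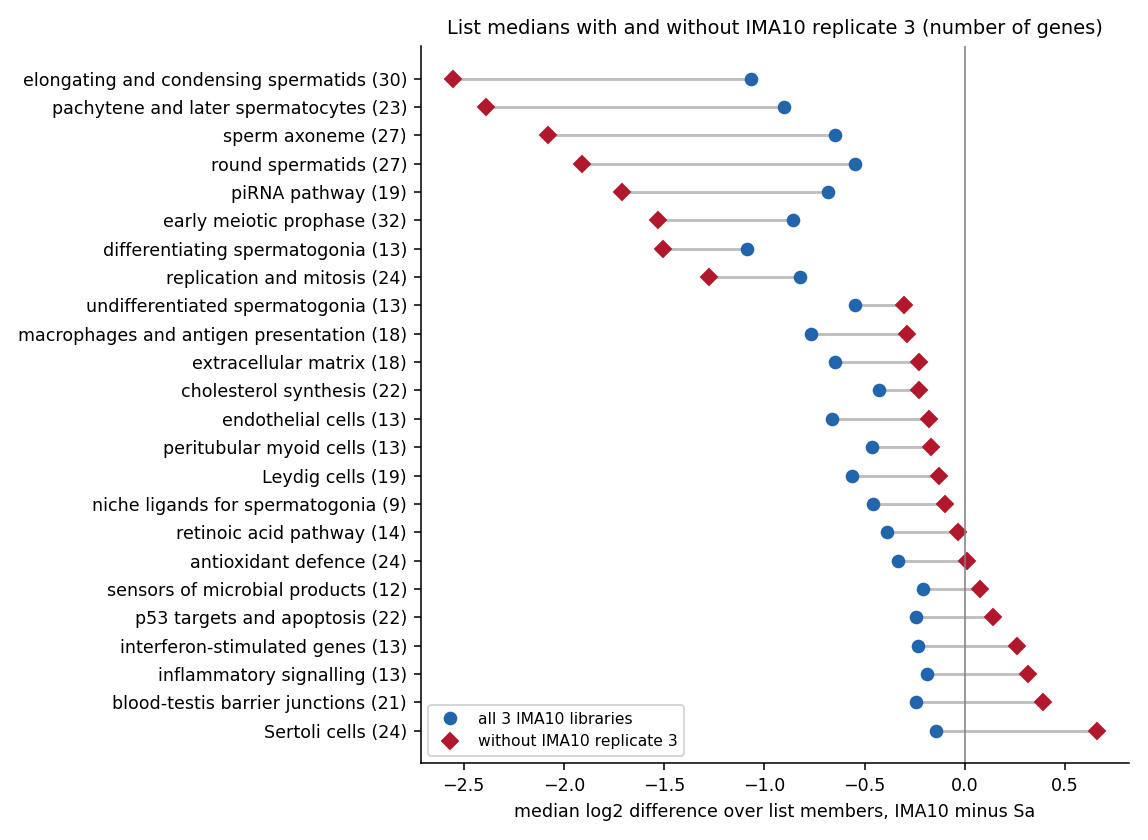
Median log2 difference, IMA10 minus Sa, over the members of 24 gene lists (number of genes in brackets), with all 3 IMA10 libraries (circles) and without IMA10 replicate 3 (diamonds). Removing the library takes the elongating spermatid median from -1.07 to -2.55 and the Sertoli median from -0.15 to 0.66, and moves the undifferentiated spermatogonia median from -0.55 to -0.31.

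Among niche ligands 9 of 13 genes passed the filter, with a median of -0.46 (-0.10 without replicate 3). The Notch ligand Jag1 stood at 1.97, 2.36 and 1.69 FPKM in IMA10 and 2.94, 3.05 and 3.35 FPKM in Sa, without overlap, and differed by -0.46 ± 0.21 (-0.38 ± 0.12 without replicate 3). No other member lacked overlap (11.11%, beside 7.41% of all genes). Cxcl12, the most abundant of them, stood at 44.7, 43.7 and 11.98 FPKM in IMA10 and 35.9, 72.3 and 64.4 FPKM in Sa. In the retinoic acid pathway 14 of 19 passed, with a median of -0.39 (-0.04 without replicate 3). The receptors Rarg and Rxra were the 2 members without overlap between groups (14.29%, beside 7.41% of all genes). With quantile normalization 0 were left, beside 2.14% of all genes. Rarg stood at 3.51, 3.35 and 3.78 FPKM in IMA10 and 6.15, 5.45 and 5.08 FPKM in Sa, and Rxra at 11.4, 12.03 and 5.21 FPKM in IMA10 and 13.3, 19.5 and 15.8 FPKM in Sa. Rarg differed by -0.53 ± 0.22, and by -0.56 ± 0.15 without replicate 3 (limma adjusted p = 0.0214). Aldh1a1, which makes retinoic acid and was the most abundant of the list, stood at 1040.5, 1079.7 and 304 FPKM in IMA10 and 673, 1097 and 1035 FPKM in Sa, with overlap.

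Cholesterol genes supply the substrate of steroid synthesis. All 22 of 23 that passed had a negative difference, as had 83.1% of all genes. The median was -0.43, or -0.22 relative to all genes, and -0.23 without replicate 3. The 4 without overlap (18.18%, beside 7.41% of all genes) were Mvd, Fdps, Srebf2 and Insig1. With median-of-ratios scaling 2 were left (9.09%, beside 2.86%) and with quantile normalization 1 (4.55%, beside 2.14%). Insig1, which holds back the sterol sensor, stood at 12.2, 13.1 and 7.85 FPKM in IMA10 and 17.4, 17.8 and 16.7 FPKM in Sa, and Mvd, an enzyme of the mevalonate pathway, at 10.5, 10.3 and 7.61 FPKM in IMA10 and 13.4, 15.2 and 13.3 FPKM in Sa. They differed by -0.63 ± 0.27 (-0.42 ± 0.17 without replicate 3) and -0.52 ± 0.24 (-0.39 ± 0.14 without replicate 3). In the extracellular matrix list of 18 genes, all of which passed, Fn1, fibronectin, stood at 2.62, 4.81 and 5.13 FPKM in IMA10 and 12.2, 8.47 and 8.68 FPKM in Sa, without overlap. It was 1 of 3 members without overlap (16.67%, beside 7.41% of all genes). Fn1 differed by -1.08 ± 0.32, and by -1.22 ± 0.25 without replicate 3 (limma adjusted p = 0.0128). The basement membrane gene Nid1 stood at 9.04, 10.9 and 5.6 FPKM in IMA10 and 11.98, 13.9 and 17.5 FPKM in Sa, with -0.73 ± 0.32 (-0.48 ± 0.16 without replicate 3), and the list median was -0.65, or -0.23 without replicate 3.

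In the list of p53 targets and apoptosis 22 of 23 passed the filter, with a median of -0.25, or -0.04 relative to all genes. It turned to 0.14 without replicate 3, with 2 of 22 lower and 2 higher, and was 0.02 with quantile normalization. Each count was 9.1% of the list, beside 25.6% lower and 7.99% higher among all genes in that fit without replicate 3. Tnfrsf10b, a death receptor, stood at 1.20, 1.35 and 1.15 FPKM in IMA10 and 2.12, 2.17 and 2.32 FPKM in Sa, without overlap, and differed by -0.52 ± 0.19 (-0.49 ± 0.10 without replicate 3). It was 1 of 2 members without overlap (9.09%, beside 7.41% of all genes). Antioxidant genes, 24 of 24 kept, had a median of -0.33 and 0.01 without replicate 3. Prdx1 and Gsr, a peroxiredoxin and the glutathione reductase, differed by -0.56 ± 0.30 (-0.28 ± 0.14 without replicate 3) and -0.75 ± 0.44 (-0.28 ± 0.12 without replicate 3), and their groups did not overlap. They were 2 of 3 antioxidant genes without overlap (12.5%, beside 7.41% of all genes). Inflammatory, interferon-stimulated and microbial sensor genes had medians of -0.19, -0.23 and -0.21 over 13 of 18, 13 of 18 and 12 of 29 genes. They lay within 0.03 of the all-gene median, and turned to 0.31, 0.26 and 0.08 without replicate 3. Lbp, which carries bacterial lipopolysaccharide, stood at 15.6, 16.01 and 4.70 FPKM in IMA10 and 14.1, 27.4 and 21.4 FPKM in Sa, with -0.86 ± 0.52 (-0.34 ± 0.35 without replicate 3), and Tlr2, a receptor for bacterial lipoproteins, at 1.57, 1.37 and 0.16 FPKM in IMA10 and 1.40, 1.86 and 1.77 FPKM in Sa. Before any other scaling, none of the kept genes in these 3 lists had groups without overlap. In the pathway lists, the lack of overlap was lost with quantile normalization in Jag1, Rarg, Rxra, Tnfrsf10b, Gsr, Mvd and Nid1, and in Rarg and Gsr also with median-of-ratios scaling.

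Where the groups did not overlap and the higher one averaged 5 FPKM or more, the smallest p on the lower side belonged to Pfdn6, a subunit of the prefoldin chaperone, at 11.7, 10.9 and 12.6 FPKM in IMA10 and 25.3, 28.9 and 29.9 FPKM in Sa. The IMA10 libraries lay within 2 FPKM of each other. The difference was -1.19 ± 0.21 with all 6 libraries, and -1.24 ± 0.35 without replicate 3 (limma adjusted p = 0.0264). Tsc22d3, a glucocorticoid-induced leucine zipper protein, stood at 9.09, 13.7 and 10.99 FPKM in IMA10 and 25.1, 25.6 and 21.6 FPKM in Sa, and differed by -1.05 ± 0.25 (-1.04 ± 0.22 without replicate 3). Melk, a kinase of dividing cells, stood at 1.99, 2.40 and 2.83 FPKM in IMA10 and 9.11, 5.81 and 5.08 FPKM in Sa, and Ccnd1, the cyclin that takes cells into S phase, at 3.02, 3.68 and 3.54 FPKM in IMA10 and 8.82, 6.10 and 7.65 FPKM in Sa. Their differences were -1.14 ± 0.29 (-1.23 ± 0.32 without replicate 3) and -0.94 ± 0.24 (-0.96 ± 0.16 without replicate 3). Ski, a repressor of TGF-beta signalling, stood at 7.06, 7.46 and 5.93 FPKM in IMA10 and 13.2, 13.5 and 13 FPKM in Sa, with -0.87 ± 0.22 (-0.79 ± 0.13 without replicate 3). Kit and Mcm2 belong to the same 10 genes. Nucb1, a calcium-binding protein of the Golgi, stood at 32.3, 41.5 and 32.8 FPKM in IMA10 and 62.8, 66 and 57.3 FPKM in Sa, and Tead2, a transcription factor of the Hippo pathway, at 1.97, 3.10 and 2.61 FPKM in IMA10 and 6.06, 4.93 and 5.49 FPKM in Sa. They differed by -0.80 ± 0.21 (-0.74 ± 0.15 without replicate 3) and -0.88 ± 0.24 (-0.89 ± 0.21 without replicate 3). Rsph3b, a radial spoke gene, stood at 21.3, 11.9 and 16.6 FPKM in IMA10 and 65.8, 31.3 and 37.7 FPKM in Sa, with -1.35 ± 0.37 (-1.36 ± 0.39 without replicate 3), and is uncertain, because its near-identical copy Rsph3a had 31.8, 51.8 and 412.5 FPKM in IMA10 and 109, 93.9 and 70.4 in Sa. All 10 kept their lack of overlap under both other scalings. These 10 were chosen from the same libraries for small p and no overlap, so that replicate 3 lay with replicates 1 and 2 was fixed by the choice. Their limma adjusted p of 0.0128 to 0.0264 without it is a description for the same reason.

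On the higher side the smallest p belonged to Hbb-bs, a beta-globin gene, at 15.3, 29.2 and 2.84 FPKM in IMA10 and 0.23, 0.23 and 0 FPKM in Sa. The difference was 3.43 ± 0.75, and 4.27 ± 1.06 without replicate 3. It has near-identical copies, and how the authors' counting split reads between them is not given, so its value is uncertain. Its copy Hbb-bt, which did not pass the filter, stood at 2.47, 5.39 and 0.49 FPKM in IMA10 and was listed at 0 in all 3 Sa libraries. Another beta-globin gene, Hbb-b1, stood at 68.0, 57.0 and 18.2 FPKM in IMA10 and at 61.2, 104 and 123.1 in Sa. Hba-a1, the alpha-globin gene, stood at 183, 186 and 53.7 FPKM in IMA10 and 149, 234 and 269 FPKM in Sa. Hbb-b1 and Hba-a1 overlap between groups, while Hbb-bt does not. Summed over the 7 red blood cell genes FPKM was 284, 312 and 74.6 in IMA10 and 206, 278 and 315 in Sa. Hbb-bs was also unequal among IMC libraries, at 0, 14.1 and 0.58 FPKM, where Hbb-bt stood at 0, 2.74 and 0. In Con, Hbb-bs stood at 0, 5.27 and 2.07 FPKM and Hbb-bt at 0, 1.33 and 0.47. Both genes thus differed by library also where treatment was the same, and the cause was not tested. Hbb-bs passed the filter only through IMA10.

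Metal-binding and mitochondrial genes were among the other 9. Mt1 and Mt2, the metallothioneins that bind zinc and copper, stood at 649.9, 589 and 906 FPKM in IMA10 and 497, 436 and 467 FPKM in Sa, and at 611, 631 and 529 FPKM in IMA10 and 477, 371 and 398 FPKM in Sa. Mt1 was highest in replicate 3 and Mt2 lowest there among the IMA10 libraries. They differed by 0.59 ± 0.25 and 0.51 ± 0.22, and without replicate 3 by 0.41 ± 0.13 and 0.59 ± 0.15 (limma adjusted p = 0.0356 and 0.0195). Atpif1, the inhibitor of the mitochondrial ATP synthase, stood at 163, 174 and 171 FPKM in IMA10 and 129, 108 and 118 FPKM in Sa, within a narrow range in both groups. It differed by 0.52 ± 0.19, and by 0.51 ± 0.11 without replicate 3 (limma adjusted p = 0.0132). Srm, the spermidine synthase, stood at 8.74, 12.4 and 13.9 FPKM in IMA10 and 5.27, 8.59 and 4.56 FPKM in Sa, with 0.85 ± 0.32 (0.72 ± 0.26 without replicate 3). Dapp1, an adaptor of immune signalling, stood at 13.7, 11.04 and 8.99 FPKM in IMA10 and 6.19, 7.71 and 6.76 FPKM in Sa, and Scand1 at 92.7, 86.9 and 79.4 FPKM in IMA10 and 70.2, 60.2 and 62.99 FPKM in Sa. They differed by 0.62 ± 0.26 (0.76 ± 0.20 without replicate 3) and 0.42 ± 0.20 (0.47 ± 0.16 without replicate 3). With quantile normalization the groups of Mt2 overlapped, while the other 9 of the 10 kept their lack of overlap under both other scalings.

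The last 3 of the 10 higher genes, Abcf1, Prr3 and Gnl1, are neighbours in the RefSeq gene order. Abcf1, a translation factor, stood at 41.7, 41.1 and 34.8 FPKM in IMA10 and 1.16, 15.6 and 26.8 FPKM in Sa, Prr3 at 19, 12.8 and 10.7 FPKM in IMA10 and 1.77, 5.56 and 10.2 FPKM in Sa, and Gnl1 at 22.98, 24.2 and 46.1 FPKM in IMA10 and 3.10, 15.02 and 18.9 FPKM in Sa. In each the Sa libraries spread widely, with Sa replicate 1 lowest. The differences were 2.00 ± 0.94 (2.09 ± 1.34 without replicate 3), 1.33 ± 0.56 (1.497 ± 0.60 without replicate 3) and 1.48 ± 0.67 (1.17 ± 1.10 without replicate 3), and none of the 3 passed without replicate 3 (limma adjusted p = 0.252, 0.0804 and 0.436). Of the 15 coding genes from Ddr1 to Gnl1 in that order, 11 were lowest in replicate 1 among Sa, 13 were lowest in replicate 1 among IMC, and 13 were highest in replicate 2 among Con. The shares of all genes with these orders were not taken, so the counts do not set this stretch apart. Tubb5, a tubulin gene of this stretch, stood at 166, 103 and 21.8 FPKM in IMA10 and at 0.18, 30.3 and 95.5 FPKM in Sa. Abcf1 stood at 1.53, 27.95 and 15.67 FPKM in IMC and at 1.8, 21.25 and 1.61 FPKM in Con. Atat1, also of this stretch, varied less, from 9.32 to 18.65 FPKM over all 12 libraries. Values of some of these genes thus differed widely by library within Sa, IMC and Con, where treatment was the same. The part of this in the 3 differences was not tested.

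The genes that set IMA10 replicate 3 apart are given by their gap to the nearest of the other 5 libraries, as a description. Above the others, Zp3r, an acrosomal protein gene, stood at 0.91, 3.14 and 40.6 FPKM in IMA10 and 4.69, 4.32 and 2.84 FPKM in Sa, Tcte3, a dynein light chain, at 33.6, 179 and 1928 FPKM in IMA10 and 332, 315 and 93.7 FPKM in Sa, and Dnah8, a dynein heavy chain of the sperm tail, at 3.40, 26.6 and 455 FPKM in IMA10 and 90.5, 61.9 and 65.1 FPKM in Sa. Their gaps were 2.87, 2.53 and 2.32 on the log2(FPKM + 1) scale. Haspin, a histone kinase of germ cells, stood at 0.49, 0.19 and 55.7 FPKM in IMA10 and 11.7, 3.11 and 9.72 FPKM in Sa, with a gap of 2.16. It also varied widely in Con, at 0.87, 65.97 and 27.89 FPKM, and in IMC, at 0.74, 14.16 and 3.76 FPKM. Below the others, Igfbp3, which binds insulin-like growth factors, stood at 127, 151 and 13.3 FPKM in IMA10 and 92.6, 113 and 106 FPKM in Sa, and Aqp5, a water channel, at 51.1, 58.7 and 6.47 FPKM in IMA10 and 38.9, 41.8 and 45.3 FPKM in Sa. The gaps were 2.71 and 2.42. Serpina5, a protease inhibitor, stood at 1175, 1015 and 168 FPKM in IMA10 and 702, 761 and 788 FPKM in Sa, with a gap of 2.05. In Con the mean was 43.5 FPKM for Zp3r and 1.3 FPKM for Igfbp3, so replicate 3 lay toward the untreated level in both. Over all 14351 genes, replicate 3 was the highest of the 6 libraries in 4835 (33.7%) and the lowest in 7421 (51.7%).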

How the data were processed

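RNA of 12 testis libraries was measured by RNA sequencing of total RNA. The values are FPKM, fragment counts that the authors scaled to transcript length and library total and deposited with 2 decimals in 1 table, per the file headers. For the aligner, counting program, build and filter, no name was given in the sources used here. Of 22221 rows, 20288 carry a gene ID, 20141 of which matched a symbol in the RefSeq table, and 1933 are new genes of the authors. Some of the 14351 genes kept are copies, since 33 share all 6 values with another.

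From these FPKM values log2(FPKM + 1) was computed, and IMA10 and Sa were compared in R 4.3.3 by limma 3.58.1, its variance trend switched on, with Benjamini-Hochberg adjustment over all genes kept. The call threshold was an adjusted p of 0.05. An exact permutation test of 3 against 3 libraries cannot go below 0.1, so none was used. The scripts were tested on simulated data. Alternatives were a pseudocount of 0.1, no filter, a filter of 5 FPKM, other scalings, all 12 libraries, array weights, a replicate block and each library left out.

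The named genes were anchors chosen for their role, the 10 lower and 10 higher genes with the smallest p and no overlap, 2 smallest p and the highest level in each list, and the 10 genes each way in which IMA10 replicate 3 departed most. Other members are named where a count of them is given, after their values were seen. The members and gene lists were chosen with earlier results of these data known.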

Additional observations from a re-analysis of the deposited data

How the results depend on the processing

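The values of 0 genes lower and 0 higher were unchanged with a pseudocount of 0.1, no filter, a filter of 5 FPKM, median-of-ratios scaling, quantile normalization and all 12 libraries. They became 3672 and 1146 with all 12 libraries and without IMA10 replicate 3, 2843 and 533 with array weights, and 1271 and 427 without IMA10 replicate 3 and with median-of-ratios scaling. Leaving out each library in turn gave 0 to 2 genes lower and 0 to 1 higher. With the replicate number as a block, 0 were lower and 0 higher. Deviations of same-numbered libraries correlated at -0.663, 0.119 and -0.692, and those of unlike-numbered libraries at -0.708 to 0.718. With 3 libraries per group this cannot show whether equal numbers mark a shared batch. Median-of-ratios scaling turned Clu to 0.08. Without IMA10 replicate 3 in all 12 libraries, Sox9 turned to 0.45, Clu to 0.64, Insl3 to 0.18 and Cdh5 to 0.11. With array weights Sox9 turned to 0.33, Clu to 0.55 and Cdh5 to 0.03. Without IMA10 replicate 3 and with median-of-ratios scaling, Sox9 turned to 0.58, Clu to 0.78, Insl3 to 0.32 and Cdh5 to 0.24. Leaving out each library in turn, Sycp3 ranged from -1.61 to 0.13, Ldhc from -2.57 to 0.2 and Acrv1 from -1.73 to 0.62, each positive without IMA10 replicate 1. In the same way Sox9 ranged from -0.72 to 0.45, Clu from -0.64 to 0.64, Insl3 from -0.8 to 0.18 and Cdh5 from -0.7 to 0.11, each positive without IMA10 replicate 3. Apart from the library left out or weighted down, the cause was not tested. Without counts, the precision of low FPKM values is unknown.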
